A study of Homo sapiens with 12 samples.

Results

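ATF4 and 9 genes known as its targets in the integrated stress response were measured in MIA PaCa-2, a cell line from a human pancreatic carcinoma, and in 3 lines edited from it. The set was ATF4, ATF3, DDIT3, TRIB3, CHAC1, SESN2, ASNS, PSAT1, PHGDH and SLC7A11, chosen by gene symbol. It made up 10 of the 63086 genes in the table, and all 10 were among the 15987 genes with enough reads to be tested. Each of the 4 lines was sequenced in 3 libraries that the titles name as biological replicates. WT was the unmodified line. CRISPR Control was wild type in genotype apart from a silent point mutation. TIMP1 KO 1 and TIMP1 KO 2 carried a knockout in exon 4 of TIMP1, which encodes an inhibitor of matrix metalloproteinases, and are called the deficient lines, with WT and CRISPR Control as the competent lines. The study sought genes that depend on TIMP1 and used CRISPR Control to set aside effects of the editing itself. All lines grew in the same serum-containing medium with no added stressor. The knockouts were clones, so that each genotype is held by a clone or line of its own, and the effect of a genotype and that of a clone cannot be told apart within a line.

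The integrated stress response is a relay that slows protein synthesis. Kinases that sense amino acid shortage, misfolded protein, viral RNA or mitochondrial damage phosphorylate the initiation factor eIF2, and most messages are then translated less, while that of ATF4 is translated more because of short reading frames ahead of its own. ATF4 protein pairs with C/EBP factors at a composite DNA element, the CARE, and switches on genes for amino acid synthesis, import and redox balance, and later for growth arrest and cell death. ATF4 is controlled to a large extent in translation, and RNA was measured here, so the ATF4 values are levels of its message and not of the protein.

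The targeted gene was lower in both knockout lines. Normalised counts of TIMP1 were 1161 ± 28.8 for KO 2, 1599.6 ± 32.8 for KO 1, 2690.4 ± 357 for CRISPR Control and 3553 ± 274 for WT (SD, n = 3 each). Against WT the limma adjusted p was 7.24e-09 for KO 1, 2.6e-11 for KO 2 and 0.000769 for CRISPR Control, which was thus below WT as well. A normalised count is the number of reads of a gene divided by the size factor of its library. Libraries held 26908701 to 36093563 reads in genes. Of 6 markers of the carcinoma line, the keratins KRT8, KRT18 and KRT19, VIM and EPCAM were detected in every library, and CDH1, the gene of E-cadherin, was at 1189 ± 56.6 for WT but at 128 ± 28.1 for KO 1 and 84.9 ± 17.1 for KO 2. The 7 markers of leukocytes, endothelium, liver and normal pancreas summed to between 4.32 and 38.9 normalised counts per library, with INS at 0 in all 12. CRISPR Control stood apart in these general measures. Its summed carcinoma markers lay between 107503 and 135643, against 250115 to 315239 in the other lines, and its share of mitochondrial reads between 0.542% and 0.583%, against 0.671% to 1.16%. Not all of the markers were lower in CRISPR Control. The log2 fold change against WT was -1.71 for KRT8, -1.69 for KRT18, -1.79 for KRT19 and -0.28 for VIM. EPCAM (-0.02) and CDH1 (0.26) did not pass the limma test there. The part of these general measures in the values of the 10 genes was not tested.

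The CARE sequence was looked for around the start sites of the 10 genes, since it is the DNA element by which ATF4 is known to act on its targets. The core TGATGNAA was searched on both strands (TTNCATCA on the other) in RefSeq start-site windows on GRCh38.p14, which hold 9 of the 10 genes. SLC7A11 had no entry. In windows of 250 bases before to 50 after a start, 3 of 9 genes held the core (ATF3, CHAC1 and ASNS), and so did 2.80% of the 10864 tested genes with an entry. In wider windows of 1000 bases before to 500 after, chosen after the first result was seen, 8 of 9 held it, against 15.1% of the tested genes counted in the same way. ATF4 itself held no match in either. A match describes letters in a window and does not show that a factor was bound. The set was not chosen by such matches, but it was chosen as ATF4 and genes known as its targets. The comparison with all tested genes is thus not independent of that choice. The matches nearest to a start are printed here, each as 30 bases on the strand of the gene, 5′ to 3′, with the core in capitals.
ASNS: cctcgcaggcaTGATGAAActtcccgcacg
CHAC1: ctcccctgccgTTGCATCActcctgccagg
DDIT3: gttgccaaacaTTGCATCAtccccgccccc
TRIB3: ttagctccggtTTGCATCAcccggaccggg
SESN2: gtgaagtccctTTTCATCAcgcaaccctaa
ATF3: aaaggtcaggaTGATGGAAggctgtcatat
PSAT1: ccctaggcgctTTGCATCAgcgtgcacagc

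The ASNS stretch is chr7:97872458-97872487, read from the minus strand, with its core 68 bases before a start and in an untranslated exon of a longer transcript (GENCODE v44). The CHAC1 stretch (chr15:40953251-40953280, plus strand, 209 bases before) also lies in an untranslated exon, and that of DDIT3 (chr12:57520802-57520831, minus strand, 303 bases before) in an intron. TRIB3 held 3 copies of its 30 bases, spaced 33 bases apart, of which the first is chr20:380881-380910 (plus strand, untranslated exon). The stretches of SESN2 (chr1:28259211-28259240) and ATF3 (chr1:212565205-212565234) lie upstream on the plus strand, and that of PSAT1 (chr9:78297381-78297410, plus strand) lies 267 bases after its start in an intron. The core reads TTGCATCA on the gene's strand in 5 genes, namely CHAC1, DDIT3, TRIB3, PSAT1 and, 954 bases ahead of a start, PHGDH.

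**Figure D1:**
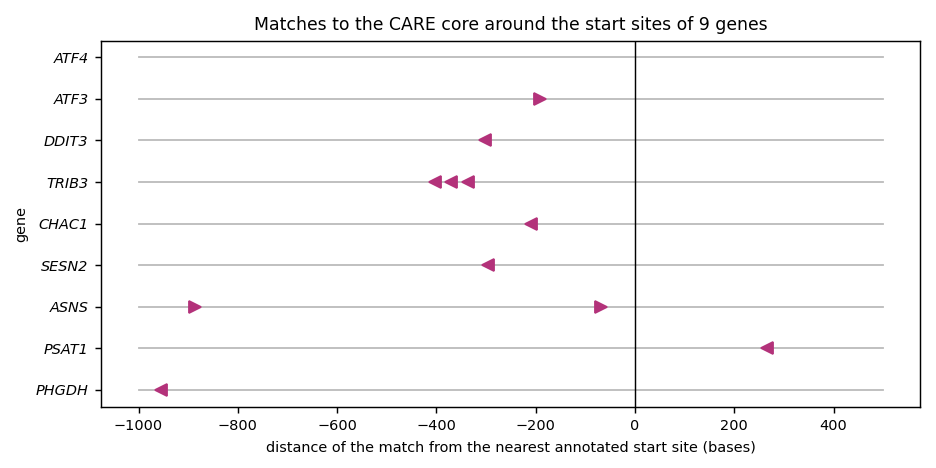
Distance in bases (x axis) of each match to the CARE core from the nearest annotated start site, for the 9 genes with an entry (rows). Right-pointing marks are matches read as TGATGNAA on the strand of the gene, left-pointing marks are on the other strand, and the grey lines span the searched window of 1000 bases before to 500 after; TRIB3 has 3 matches close together and ATF4 has none.

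The highest levels of most of the 10 genes were found in CRISPR Control and not in either knockout line. Against WT, 9 of the 10 rose in CRISPR Control, where 27.2% of all tested genes did, and PHGDH fell, as did 26.3% of all genes. In KO 2, 8 rose (27.1% of all genes) and PSAT1 and PHGDH fell (27.9%). In KO 1, ATF3 alone rose (18.0%), PSAT1 and SLC7A11 fell (17.5%), and the other 7 did not pass the test. The tests were limma fits on log2(normalised count + 1) over all tested genes, two-sided, with Benjamini-Hochberg adjustment at 0.05, and all log2 fold changes below are on that scale. The 3 comparisons share the WT libraries and are therefore not independent of each other. The members were chosen with earlier results of these data known, so the shares of all genes are given for scale and not as a test. The values of each gene follow by role, and their level in every library is plotted.

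**Figure D2:**
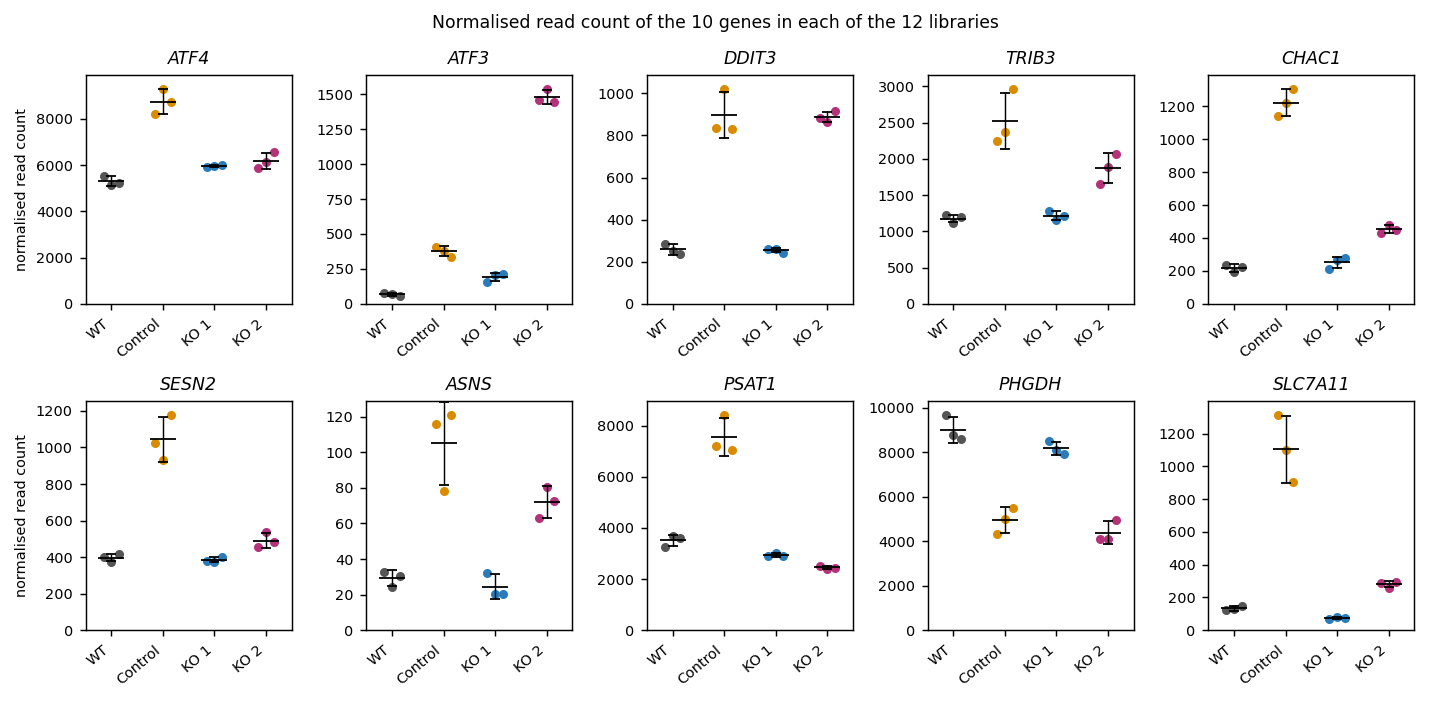
Normalised read count (y axis, linear, from 0) of each of the 10 genes in the 3 libraries of WT, CRISPR Control (Control), TIMP1 KO 1 and TIMP1 KO 2. Points are libraries, and the bars mark the mean and SD of a line; the 3 CRISPR Control libraries lie above the other 9 for 6 genes, ATF3 is highest in KO 2, and PHGDH is highest in WT and KO 1.

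Among the transcription factors, ATF4 rose in CRISPR Control and ATF3 in every edited line. ATF4 (ENSG00000128272.18, chr22:39519695-39522683, plus strand, GRCh38) is the factor that carries the response to its targets. Its normalised counts in replicates 1, 2 and 3 were 5546, 5136 and 5238 in WT, 8227, 9300.05 and 8725 in CRISPR Control, 5926, 5967 and 5999 for KO 1, and 5871, 6135 and 6561 for KO 2. The CRISPR Control libraries lay above the other 9, and the libraries of both knockouts above those of WT by a small margin. The log2 fold change against WT was 0.72 in CRISPR Control (SE 0.07, limma adjusted p = 5.14e-08), or 1.65-fold. It was 0.22 in KO 2 (SE 0.07, adjusted p = 0.00997), a call that was lost without KO 2 replicate 3 (0.18, limma adjusted p = 0.0563), and 0.17 in KO 1 (SE 0.07, adjusted p = 0.0597), which did not pass. KO 2 and KO 1 were not told apart for ATF4 (0.05, SE 0.07, limma adjusted p = 0.582).

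ATF3 (ENSG00000162772.18, chr1:212565334-212620777, plus strand) encodes a factor of the same family that is induced early by many stresses. It had 80.4, 67.3 and 59.1 normalised counts in WT, 409, 381 and 338 in CRISPR Control, 157, 207 and 210.2 for KO 1, and 1458, 1538 and 1446 for KO 2. The 4 lines did not overlap, and every KO 2 library was several times above every library of the other lines. ATF3 lay 21.5-fold above WT in KO 2 (log2 fold change 4.42, SE 0.13, limma adjusted p = 7.48e-15), 5.46-fold in CRISPR Control (2.44, SE 0.13, limma adjusted p = 2.62e-11) and 2.78-fold in KO 1 (1.46, SE 0.13, limma adjusted p = 9e-08). It was the member with the widest range between lines.

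DDIT3 (ENSG00000175197.13, chr12:57516588-57521737, minus strand) encodes CHOP, a factor of the late response that favours cell death. Its libraries held 286, 252 and 237 normalised counts in WT, 836, 1021 and 832 in CRISPR Control, 259, 261 and 243 for KO 1, and 882, 865 and 915 for KO 2. The lines fell into a low pair, WT and KO 1, and a high pair, CRISPR Control and KO 2, which overlapped within each pair and not between them. The log2 fold change against WT was 1.79 in CRISPR Control (SE 0.10, limma adjusted p = 4.94e-11) and 1.78 in KO 2 (SE 0.10, limma adjusted p = 5.93e-11), and -0.02 in KO 1 (SE 0.10, limma adjusted p = 0.909). DDIT3 lies opposite to MARS1 and MBD6, and ENSG00000285133 and MIR616 overlap it on its own strand. The strand setting and the handling of shared reads are not given in the sources used here. Reads of these genes may thus have been counted with DDIT3, or shared reads left out.

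The regulators TRIB3, CHAC1 and SESN2 shared an order, with CRISPR Control first and KO 2 next. TRIB3 (chr20:362835-397559, plus strand) encodes a pseudokinase that binds ATF4 and damps its activity. It had 1219, 1117 and 1192 normalised counts in WT, 2247, 2364 and 2965 in CRISPR Control, 1275, 1160.1 and 1217 for KO 1, and 1655, 1892 and 2064 for KO 2. Every CRISPR Control library was above every KO 2 library, and these were above WT and KO 1, which overlapped. The log2 fold change against WT was 1.09 in CRISPR Control (SE 0.10, limma adjusted p = 3.46e-08) and 0.66 in KO 2 (SE 0.10, limma adjusted p = 1.63e-05).

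CHAC1 (chr15:40952962-40956512, plus strand) encodes an enzyme that breaks down glutathione. It stood at 237, 193 and 222 normalised counts in WT, 1140.1, 1218 and 1305.5 in CRISPR Control, 212, 266 and 276 for KO 1, and 429.9, 478 and 449 for KO 2. The same 3 tiers were seen, with a wider step between CRISPR Control and KO 2. CHAC1 was 5.63-fold above WT in CRISPR Control (log2 fold change 2.49, SE 0.12, limma adjusted p = 1.88e-12) and 2.08-fold in KO 2 (1.06, SE 0.12, limma adjusted p = 3.15e-07).

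SESN2 (chr1:28259518-28282491, plus strand) encodes sestrin 2, a leucine sensor that restrains mTORC1. It had 403, 374 and 415 normalised counts in WT, 1027, 933 and 1177 in CRISPR Control, 379, 375 and 403 for KO 1, and 454, 537 and 480.3 for KO 2. The KO 2 libraries exceeded those of WT by a narrow gap, while the CRISPR Control libraries were far above both. The log2 fold change was 1.39 in CRISPR Control (SE 0.10, limma adjusted p = 1.47e-09) and 0.30 in KO 2 (SE 0.10, limma adjusted p = 0.0177), and the latter call was lost without KO 2 replicate 2 (0.23, limma adjusted p = 0.0985) or WT replicate 2 (0.26, limma adjusted p = 0.0706).

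The 3 enzymes of amino acid synthesis went different ways. ASNS (chr7:97851677-97872542, minus strand), which makes asparagine and is a classic target of ATF4, had 32.8, 24.5 and 30.5 normalised counts in WT, 116, 78.3 and 121 in CRISPR Control, 32.4, 20.3 and 20.3 for KO 1, and 63.0, 80.7 and 72.6 for KO 2. WT and KO 1 were low and overlapped, and CRISPR Control and KO 2 were high and overlapped. With 18 to 134 reads per library this was the least covered gene of the set. ENSG00000284707 overlaps ASNS on its own strand and ENSG00000226744 on the other. How reads shared by overlapping genes were counted is not given in the sources used here, so the ASNS counts may not hold all its reads. Against WT the log2 fold change was 1.79 in CRISPR Control (SE 0.24, limma adjusted p = 4.56e-06) and 1.27 in KO 2 (SE 0.24, limma adjusted p = 0.000177).

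PSAT1 and PHGDH encode neighbouring steps of serine synthesis, and their levels did not follow each other. PSAT1 (chr9:78297125-78330093, plus strand) had 3257.5, 3677 and 3614 normalised counts in WT, 7217, 8416 and 7052 in CRISPR Control, 2889.95, 3027 and 2903 for KO 1, and 2522, 2404 and 2439 for KO 2. All 4 lines were apart, with CRISPR Control on top and KO 2 lowest. PSAT1 rose in CRISPR Control by 1.10 on the log2 scale (SE 0.08, limma adjusted p = 5.8e-10). It fell by 0.52 in KO 2 on the log2 scale (SE 0.08, limma adjusted p = 1.19e-05) and by a smaller -0.26 in KO 1 (SE 0.08, limma adjusted p = 0.0124), which was lost without WT replicate 2 (-0.22, limma adjusted p = 0.0555) or WT replicate 3 (-0.24, limma adjusted p = 0.0554).

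PHGDH (chr1:119648411-119744218, plus strand), the first enzyme of the route, had 9664, 8759.5 and 8596 normalised counts in WT, 4326, 4985 and 5509 in CRISPR Control, 8506, 8113 and 7926 for KO 1, and 4089, 4095.5 and 4967 for KO 2. It was high in WT and KO 1 and low in CRISPR Control and KO 2, the reverse of the grouping seen for DDIT3 and ASNS. The log2 fold change of PHGDH against WT was -0.87 in CRISPR Control (SE 0.09, limma adjusted p = 1.99e-07) and -1.04 in KO 2 (SE 0.09, limma adjusted p = 1.57e-08). In KO 1 that of PHGDH was -0.14 (SE 0.09, limma adjusted p = 0.26), which did not pass although each KO 1 library was below each WT library.

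SLC7A11 (chr4:138164097-138242349, minus strand) encodes the cystine importer of system xc-, which feeds glutathione synthesis. Its libraries had 121, 131 and 147 normalised counts in WT, 1312, 1098 and 902 in CRISPR Control, 65.9, 81.0 and 71.6 for KO 1, and 287, 258 and 294 for KO 2. The lines did not overlap, and SLC7A11 was the member that differed in opposite directions between the knockouts. It was 8.31-fold above WT in CRISPR Control (log2 fold change 3.03, SE 0.14, limma adjusted p = 1.72e-12) and 2.10-fold in KO 2 (1.07, SE 0.14, limma adjusted p = 3.06e-06), and below WT in KO 1 (-0.86, SE 0.14, limma adjusted p = 8.56e-05). The antisense gene SLC7A11-AS1 lies opposite to it, and its reads could not be told apart from those of SLC7A11 if strand was not used.

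**Figure D3:**
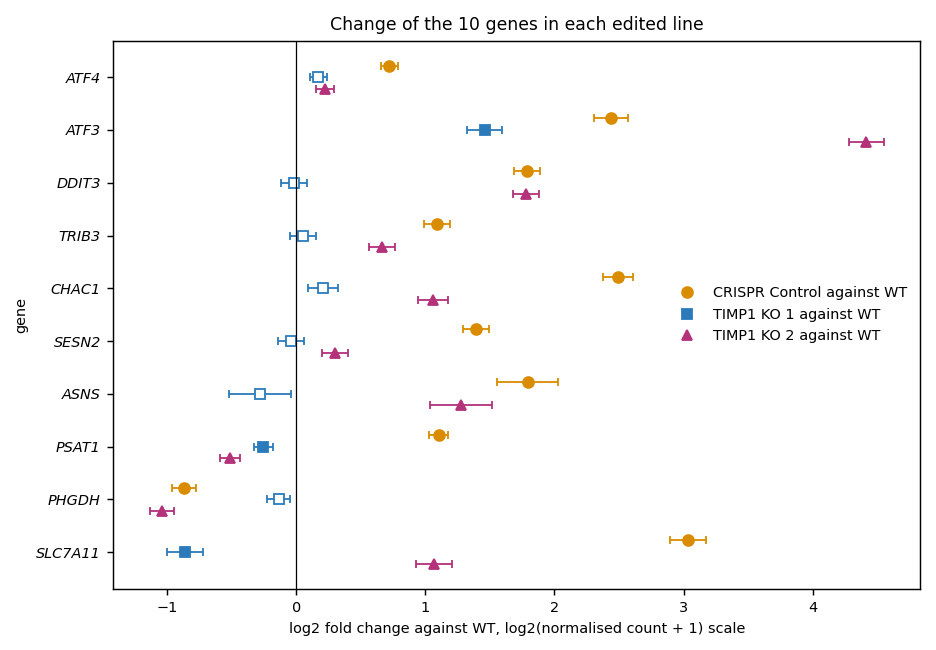
Log2 fold change against WT on the log2(normalised count + 1) scale (x axis) of the 10 genes (rows) in CRISPR Control (circles), TIMP1 KO 1 (squares) and TIMP1 KO 2 (triangles), with bars of 1 SE. Filled marks passed the limma test at an adjusted p of 0.05 and open marks did not; all circles except that of PHGDH lie to the right of 0, and 7 of the 10 squares are open.

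The changes were also counted by size. In CRISPR Control 8 of the 10 genes were higher than WT by at least 1 on the log2 scale, against 7.14% of all tested genes. In KO 2 the same held for 5 genes (10.0% of all tested genes), and in KO 1 for ATF3 alone (4.13%). The median log2 fold change of the 10 genes was 1.59 for CRISPR Control, 0.86 for KO 2 and -0.03 for KO 1, while the median over all tested genes stayed between -0.01 and 0.01. For ATF4, TRIB3, CHAC1, SESN2, PSAT1 and SLC7A11, 6 of the 10, all 3 CRISPR Control libraries exceeded the other 9 libraries, which was so for 18.6% of all tested genes.

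None of the 10 genes met the study's definition of dependence on TIMP1, which here required a change from WT in both knockouts in a shared direction and no change in CRISPR Control. The count was 0 of 10 by limma, and 0 by edgeR and by DESeq2. By limma 10.2% of all tested genes met the definition, so a count of 0 of 10 is near the share of all genes. Each of the 10 had changed in CRISPR Control. That alone fixed the count at 0, also at an unadjusted p of 0.05. ATF3 rose and PSAT1 fell against WT in both knockouts, and both rose in CRISPR Control.

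Set against CRISPR Control, the other line that went through editing, the knockouts were lower for most of the 10. In KO 1, 9 genes were lower (31.3% of all tested genes) and PHGDH was higher (31.7%), with a median log2 fold change of -1.39. SLC7A11 differed by -3.89 (SE 0.14, limma adjusted p = 1.63e-14) and ASNS by -2.07 (SE 0.24, limma adjusted p = 4.12e-07). In KO 2, 6 genes were lower (34.4%), ATF3 was higher by 1.98 (SE 0.13, limma adjusted p = 2.35e-10; 33.3% of all genes were higher), and DDIT3, ASNS and PHGDH did not pass. DDIT3 differed by -0.01 (SE 0.10, limma adjusted p = 0.947), PHGDH by -0.17 (SE 0.09, limma adjusted p = 0.102) and ASNS by -0.52 (SE 0.24, limma adjusted p = 0.0624). PHGDH passed without CRISPR Control replicate 1 (-0.26, limma adjusted p = 0.0118) or KO 2 replicate 3 (-0.26, limma adjusted p = 0.0178). ASNS passed in the edgeR (adjusted p = 0.029) and DESeq2 (adjusted p = 0.0325) fits.

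The knockouts also differed from each other. They carry a knockout in the same exon, for which the study used guide RNAs against different regions of that exon. In KO 2, 7 of the 10 were higher than in KO 1 (18.1% of all tested genes), PSAT1 and PHGDH were lower (20.1%), and ATF4 did not pass. The differences were at least 1 on the log2 scale for 4 genes (7.03% of all tested genes). They were those of ATF3 (log2 fold change 2.96, SE 0.13, limma adjusted p = 5.52e-12), SLC7A11 (1.93, SE 0.14, limma adjusted p = 3.28e-09), DDIT3 (1.80, SE 0.10, limma adjusted p = 1.23e-10) and ASNS (1.56, SE 0.24, limma adjusted p = 4.21e-05). CHAC1 differed by 0.85, TRIB3 by 0.61, SESN2 by 0.34, PSAT1 by -0.26 and PHGDH by -0.91. The call of PSAT1 was lost with equal library totals (-0.16, limma adjusted p = 0.128), and that of SESN2 without KO 2 replicate 2 (0.28, limma adjusted p = 0.0739). The mean level of ATF4 differed 1.04-fold between the knockouts, while ATF3 differed 7.74-fold.

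When the mean of the deficient lines was compared with the mean of the competent lines, 8 of the 10 were lower (33.0% of all tested genes), ATF3 was higher (32.9%), and DDIT3 did not pass (-0.01, SE 0.07, limma adjusted p = 0.879). ATF4 was among these 8, yet its libraries in both knockouts lay above those of WT. Its log2 fold change against WT was 0.17 in KO 1, which did not pass, and 0.22 in KO 2. SLC7A11 differed by -1.41 (SE 0.10, limma adjusted p = 3.42e-10), CHAC1 by -0.61 (SE 0.08, limma adjusted p = 2.3e-06) and SESN2 by -0.57 (SE 0.07, limma adjusted p = 1.28e-06), but their WT libraries lay among or below those of the knockouts. For PSAT1 alone, 1 of the 10, did all 6 deficient libraries lie below all 6 competent libraries (-0.94, SE 0.05, limma adjusted p = 1.66e-11), a separation seen in 12.4% of all tested genes. ASNS (-0.40, limma adjusted p = 0.0444), PHGDH (-0.15, limma adjusted p = 0.0416) and TRIB3 (-0.19, limma adjusted p = 0.0246) were near the threshold, and their calls were lost under several of the alternatives described in the closing section. Against WT, ASNS and TRIB3 rose in KO 2 and did not pass in KO 1.

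The wider pathway was followed in gene lists by role, which were also chosen with earlier results of these data known. Other stress targets of ATF4 and CHOP were mostly higher in CRISPR Control, where 11 of the 14 tested rose (27.2% of all tested genes) and 3 did not pass (median log2 fold change 0.59). In KO 2, 9 of 14 rose (27.1%) and 5 did not pass (median 0.52), and in KO 1, 6 rose (18.0%) and 4 fell (17.5%; median 0.24). GDF15, a secreted stress hormone, averaged 7905 ± 1397 for CRISPR Control, 1740.2 ± 31.2 for WT, 1909.6 ± 269 for KO 2 and 397 ± 12.7 for KO 1 (SD, n = 3 each), and gave the lowest value of the list for deficient against competent lines (-2.09, SE 0.08, limma adjusted p = 3.6e-14). TNFRSF10B, a death receptor induced by CHOP, gave the highest (0.63, SE 0.05, limma adjusted p = 5.6e-09). FGF21 had too few reads to be tested.

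Of 9 amino acid transporters, 6 rose and SLC1A5 fell in CRISPR Control (median 0.52; 27.2% and 26.3% of all tested genes). In the knockouts 2 were higher and 4 lower in KO 1 (18.0% and 17.5%), and 2 higher and 3 lower in KO 2 (27.1% and 27.9%). SLC6A9, a glycine carrier, was the highest in deficient against competent lines (0.49, SE 0.07, limma adjusted p = 6.2e-06). SLC7A5, the leucine importer that pairs with SLC3A2, was the lowest (-1.76, SE 0.06, limma adjusted p = 7.18e-15). SLC7A3, a carrier of cationic amino acids, reached the minimum mean for testing only through CRISPR Control and was left out of these counts. It had 38.0, 52.2 and 46.2 normalised counts there and at most 1.82 in any library of the other lines. Enzymes of amino acid and folate metabolism included 7 that rose and 3 that fell of 12 in CRISPR Control (median 0.32; 27.2% and 26.3% of all genes). In KO 1, 4 rose (18.0%) and 4 fell (17.5%), and in KO 2, 4 rose (27.1%) and 6 fell (27.9%). BCAT1, which starts the breakdown of branched-chain amino acids, differed by 4.59 in CRISPR Control (SE 0.14, limma adjusted p = 5.2e-15), 1.25 in KO 2 and 0.47 in KO 1, and was lowest in deficient against competent lines (-1.44, SE 0.10). CTH, which makes cysteine, was the highest there (0.68, SE 0.10, limma adjusted p = 6e-06).

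The tRNA synthetases known as ATF4 targets rose in CRISPR Control for 10 of 12 genes (27.2% of all tested genes), with a median log2 fold change of 0.37. In KO 1, 1 rose (18.0%) and 3 fell (17.5%), and in KO 2, 4 rose (27.1%) and 2 fell (27.9%). CARS1 (0.17, SE 0.04, limma adjusted p = 0.0026) and NARS1 (-0.41, SE 0.05, limma adjusted p = 5.7e-07) were the highest and lowest for deficient against competent lines. Against WT, NARS1 rose by 0.61 in CRISPR Control and did not pass in KO 1 (-0.15) or in KO 2 (-0.05). Of 8 synthetases outside that list, 4 rose and VARS1 fell in CRISPR Control (median 0.22; 27.2% and 26.3% of all genes), and 5 fell in each knockout with the other 3 not passing (17.5% of all genes fell in KO 1 and 27.9% in KO 2). FARSB was the lowest of these in deficient against competent lines (-0.80, SE 0.05, limma adjusted p = 1.2e-10).

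Partners and upstream parts had list medians from -0.01 to 0.49 in CRISPR Control, where 27.2% of all tested genes rose and 26.3% fell. Of 6 bZIP factors that pair with ATF4 or act beside it, 4 rose and ATF5 fell in CRISPR Control (median 0.49). In KO 2, 4 rose and ATF5 fell as well (median 0.41; 27.1% and 27.9% of all genes), and in KO 1, 3 rose (median 0.16; 18.0%). CEBPG, a partner of ATF4 on the CARE, rose in CRISPR Control by 0.83 (SE 0.07, limma adjusted p = 1.2e-08) and was the lowest of the list in deficient against competent lines (-0.52, SE 0.05), while JDP2 was the highest (0.54, SE 0.07). Against WT, CEBPG did not pass in KO 1 (-0.15, limma adjusted p = 0.103) or in KO 2 (-0.06, limma adjusted p = 0.488). JDP2 rose against WT in CRISPR Control (0.66) as well as in KO 1 (0.95) and KO 2 (0.79). Among 8 kinases and sensors that start the response, 2 rose and 2 fell in CRISPR Control (median -0.01), shares near those of all genes. EIF2AK2, the kinase PKR that senses double-stranded RNA, rose by 1.48 in KO 2 (SE 0.10, limma adjusted p = 5.4e-10) and by 0.45 in KO 1 (SE 0.10), and was the highest in deficient against competent lines (0.86, SE 0.07), where EIF2AK4, the amino acid sensor GCN2, was the lowest (-0.31, SE 0.06). Of 10 genes of eIF2, its exchange factor eIF2B and its phosphatase, 5 rose and EIF2B5 fell in CRISPR Control (median 0.20). In KO 1, 0 rose (18.0% of all genes) and 5 fell (17.5%), and in KO 2, 3 rose (27.1%) and 4 fell (27.9%). PPP1R15A, the phosphatase subunit GADD34 that ends the response, rose by 0.95 in KO 2 (SE 0.08, limma adjusted p = 1e-08) and by 0.41 in CRISPR Control (SE 0.08), and was the highest in deficient against competent lines (0.32, SE 0.06), with EIF2B3 the lowest (-0.50, SE 0.06).

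The ATF6 and XBP1 branches are the other arms of the unfolded protein response. Of their 15 genes, 5 rose and 5 fell in CRISPR Control (median 0.05), where 27.2% and 26.3% of all tested genes did. In KO 2, 8 rose and 4 fell (median 0.25; 27.1% and 27.9% of all genes), and in KO 1, 5 rose and 2 fell (median 0.09; 18.0% and 17.5%). HSP90B1, a chaperone of the endoplasmic reticulum, was the highest in deficient against competent lines (0.60, SE 0.06) and MANF, a secreted stress factor, the lowest (-0.90, SE 0.07). Of 7 targets of NRF2, a factor that also drives SLC7A11, 4 rose and SRXN1 fell in CRISPR Control (median 0.51; 27.2% and 26.3% of all genes), and 4 fell in KO 1 (17.5%) with the other 3 not passing. In KO 2, 1 rose (27.1%) and 2 fell (27.9%). HMOX1, which breaks down haem, rose by 2.72 in CRISPR Control (SE 0.08, limma adjusted p = 4.8e-15) and fell by 0.37 in KO 1 and by 0.34 in KO 2, and was lowest in deficient against competent lines (-1.71, SE 0.06). Among 5 relatives of the members, TRIB2 fell in CRISPR Control (-2.00, SE 0.14), where TRIB3 rose. TRIB2 rose in KO 1 (1.57, SE 0.14), where TRIB3 did not pass, and in KO 2 (0.82, SE 0.14), where TRIB3 rose as well. It was the highest in deficient against competent lines (2.20, SE 0.10), whereas SESN3 was the lowest (-0.92, SE 0.18). Against WT, however, SESN3 rose by 2.77 in CRISPR Control and by 0.78 in KO 2, and did not pass in KO 1 (0.14).

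Likeness of pattern was measured as the root mean square difference of log2 values, centred on each gene, over the 12 libraries. Candidates outside the set were genes that averaged at least 100 normalised counts, a minimum not applied to pairs within the set. The profile nearest to that of ATF4 was RNF14 (0.0562), followed by TSPAN17, C11orf1, IP6K2 and TPM4 (0.0858), where the median of all candidates was 0.366. RNF14 had line means of 2068 for WT, 3318 for CRISPR Control, 2238 for KO 1 and 2404 for KO 2. The mean profile of the 10 genes was closest to ATL1 (0.120), MGLL, EGFLAM, SPRY4 and QPRT (0.177), against a median of 0.690. Within the set, TRIB3 and SESN2 were the most alike (0.252), then ATF4 and TRIB3 (0.259), and DDIT3 was closest to ASNS (0.349).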

How the data were processed

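RNA of MIA PaCa-2 lines was sequenced in 12 libraries. The authors trimmed reads with Cutadapt, aligned them to GRCh38 by STAR and assigned them to genes by featureCounts. They then scaled each library by its DESeq2 size factor, and the deposited signal is this normalised count. Its steps returned whole reads within 0.01 reads, which gave the depth and the counts for edgeR (version 4.0.16) and DESeq2 (1.42.0). A row without a gene name and 4 columns of line means were not used. The main test was limma (3.58.1, R 4.3.3) with trend on log2(value + 1) for genes with a mean of at least 10, with 4 line means from 12 libraries and 7 comparisons, checked on simulated data. P-values measure the spread between libraries. Named genes were the members, TIMP1, the highest and lowest called gene of each list in deficient against competent lines, and the 5 nearest profiles. SLC7A3 was left out of the list counts because only CRISPR Control raised its mean past the minimum, so SLC7A5 was the lowest transporter. SLC1A5, VARS1, ATF5, EIF2B5 and SRXN1, named beside a count, were chosen after their values were seen. The members and lists were chosen with earlier results of these data known. Alternatives were other pseudocounts, minimum means, scalings and tools, left-out libraries and a replicate block. The annotation release and strand setting are not given in the sources used here.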

Additional observations from a re-analysis of the deposited data

Results flagged for a closer look

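Between the knockout lines, 4 of the 10 genes were higher in KO 2 by at least 1 on the log2 scale in a direct limma test against KO 1, as were 7.03% of all tested genes. The differences were 2.96 for ATF3, 1.80 for DDIT3, 1.56 for ASNS and 1.93 for SLC7A11.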

How the results depend on the processing

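Of 70 log2 fold changes of the 10 genes in 7 comparisons, 55 kept their direction and their side of the threshold under every alternative run. Over all alternatives, 1404 of 1460 values did so, 33 lost the call, 13 gained it and 10 changed sign. The sign changes were all of DDIT3 where its difference was near 0. For KO 1 against WT it ran from -0.0784 to 0.0570 over the left-out libraries. For KO 2 against CRISPR Control it was 0.0134 by edgeR, 0.106 with equal library totals and -0.0589 to 0.0889 over the left-out libraries. For deficient against competent lines it was 0.0400 with equal library totals and -0.0434 to 0.0350 over the left-out libraries. The calls for deficient against competent lines that were lost under several alternatives were ASNS (11 alternatives, adjusted p from 0.0528 to 0.106), PHGDH (10, from 0.0501 to 0.14) and TRIB3 (5, from 0.0542 to 0.0801). For KO 2 against KO 1, PSAT1 lost its call with equal library totals and SESN2 without KO 2 replicate 2. For KO 2 against CRISPR Control, ASNS passed in 6 alternatives and PHGDH in 2, with leave-one-out values of PHGDH from -0.26 to -0.09. CHAC1 in KO 1 against WT passed without KO 1 replicate 1 (0.32, limma adjusted p = 0.0446). ATF4 in KO 1 against WT passed in 4 alternatives (adjusted p from 0.0136 to 0.0492). The number of genes called stayed at 10 for CRISPR Control against WT and for KO 1 against CRISPR Control, and against WT ran from 2 to 4 in KO 1 and from 9 to 10 in KO 2. It was 6 to 9 for deficient against competent lines. A minimum log2 fold change of 1, added after seeing the data, left 1 gene for KO 1 and 6 for KO 2 against WT, 4 for KO 2 against KO 1 and 2 for deficient against competent lines. Replicate numbers did not pair the libraries (median correlation of same-numbered deviations -0.01, over 0.1 in 2 of 18 pairs), and the replicate block changed 0 of 70 calls. Without SLC7A3, an exclusion chosen after seeing the data, the transporters that rose in CRISPR Control numbered 6 of 9 in place of 7 of 10. ASNS, at 18 to 134 reads per library, is the gene whose precision depth limits most.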

Other observations

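The median coefficient of variation of the 10 genes over the 3 libraries of a line was 4.32% for KO 1, 6.24% for KO 2, 8.07% for WT and 11.9% for CRISPR Control, and ASNS gave the highest value in all lines except WT, where ATF3 did.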
